A study of Mus musculus with 5 samples.

Results

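The probes described here are 10 of the 171 microRNA probes on the arrays, chosen by name because their microRNAs are best known from tissues other than blood. They are 1org-122a for liver, 1org-124a and 1org-128 for the nervous system, 1org-1d and 1org-206 for striated muscle, and 1org-143 and 1org-145 for smooth muscle. The remaining members are 1org-126 and 1org-126* for endothelium and 1org-205 for epithelium. All 10 were found in the deposited table. The rule uses names and no measured value, but it was written with earlier results of these data known. A platform annotation gave a gene for 2 of them, Mir143 and Mir206. The other 8 are read by the number in the probe ID.

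The study set total RNA of activated mouse CD4+25- T cells against RNA of the same cells without activation, called naive here as in the title, on 5 arrays of 2 channels. Activation had lasted overnight (1 array, activated RNA in Cy5), 3 days (2 arrays of opposite dye) or 10 days (2 arrays of opposite dye). CD4+25- cells are helper T cells without those that carry CD25, a marker of regulatory and of recently activated T cells. For strain, age, the means of activation and the number of RNA extracts the labels state nothing, so the spread between the arrays of a pair may be technical.

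A microRNA is a short RNA, cut from a hairpin precursor, that pairs with messenger RNAs mainly through bases 2 to 8 at its 5′ end, the seed, and lowers their translation or stability. Many microRNAs are made in 1 tissue or cell lineage. miR-122 is the main microRNA of hepatocytes, miR-124 and miR-128 are abundant in neurons, and miR-1 and miR-206 are muscle microRNAs of 1 seed family. miR-143 and miR-145 come from 1 primary transcript that is strong in smooth muscle, miR-126 and miR-126* are the 2 arms of 1 hairpin in endothelial cells, and miR-205 belongs to stratified epithelia.

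Mature sequences from RefSeq (GRCm38.p6) were matched for 4 of the 10 probes and are shown for these alone. The match left out some reference entries by chromosome, so the absence of a sequence here does not mean that RefSeq holds none. Capitals mark the seed, and no seed is shared among the 4. This does not extend to the members without a sequence here. Among them is the muscle member that shares its seed with the muscle member shown. The probe sequences themselves were not used here.

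miR-206-3p (1org-206): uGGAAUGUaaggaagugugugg

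miR-128-3p (1org-128): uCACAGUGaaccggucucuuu

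miR-205-5p (1org-205): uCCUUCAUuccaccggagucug

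miR-126a-3p (1org-126): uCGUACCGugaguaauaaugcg

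The sequence of miR-206-3p lies at chr1:20679055-20679076 on the plus strand, within the span of the long noncoding RNA gene Lincmd1. That of miR-128-3p is encoded at chr1:128202404-128202424 (plus strand, within R3hdm1) and again at chr9:112118644-112118664 (minus strand, within Arpp21). miR-205-5p lies at chr1:193507503-193507524 on the minus strand, within Mir205hg, its noncoding host gene. miR-126a-3p lies at chr2:26591402-26591423 on the plus strand, within Egfl7, a gene of endothelial cells.

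Each array gave 1 log ratio per probe, read as log2, with no missing value. Ratios were turned to activated over naive, taking Cy5 as the numerator of the deposited values, which is likely but not stated. If Cy3 was the numerator, every direction of activation given here is turned, and so is the dye part. The turned array medians ranged from -1.75 overnight to 1.42 on the Cy3-activated array of day 3, so values are given as the difference from the array median unless said otherwise. A ratio gives no level: whether a probe was above background, and so whether its microRNA was present in either RNA, is unknown. In bulk RNA, fewer cells of a type and less RNA per cell cannot be told apart. The number of arrays limits the precision.

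**Figure D1:**
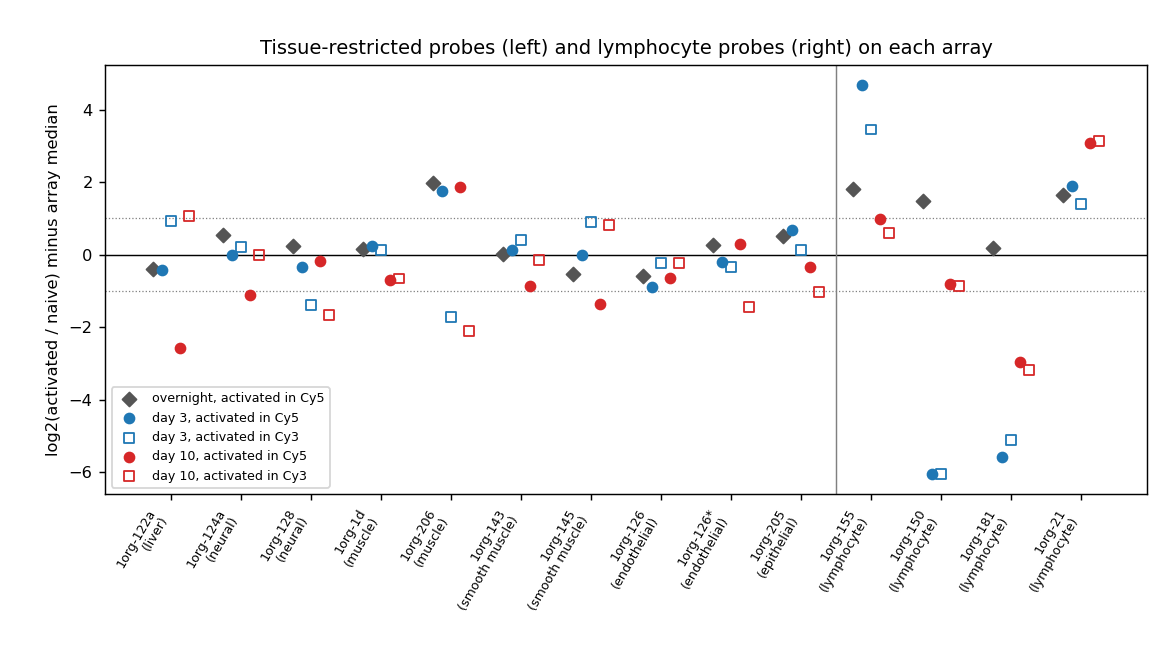
Log2 ratio of activated over naive RNA minus the array median (y axis) for the 10 tissue-restricted probes and 4 probes for scale (x axis). There is 1 point per array, with dotted lines 2-fold from the median. The 4 are labelled lymphocyte, but 1org-21 among them is not of the 8 lymphocyte probes counted in the text. Open squares are arrays with activated RNA in Cy3. The members lie between -2.56 and 1.97, and 1org-206 changes sides with the dye, while 1org-150 reaches -6.06 with both dyes at day 3.

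The liver probe 1org-122a had the lowest value of the 10 members on any array, at day 10 with activated RNA in Cy5. It stood at -0.40 overnight, at -0.42 (activated in Cy5) and 0.93 (Cy3) at day 3, and at -2.56 (Cy5) and 1.06 (Cy3) at day 10. All 3 arrays with activated RNA in Cy5 were below the median and both with it in Cy3 were above. Read as Cy5 over Cy3 it was therefore below the median on all 5 arrays, as were 9.94% of all probes. Its pair means were 0.25 ± 0.67 at day 3 and -0.75 ± 1.81 at day 10, where ± is the distance of either array from the mean (n = 2 arrays). That distance holds the part of the signal that does not turn when the dyes are exchanged, called the dye part below with Cy5 over Cy3 as positive. With 1 array per dye it also holds array noise and any difference between RNA extracts, which cannot be told apart from a dye effect. The distance is not a standard error.

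The 2 neural probes differed from each other. The neuronal probe 1org-124a stood at 0.53 overnight, at -0.011 and 0.21 at day 3 and at -1.11 and -0.017 at day 10, with the Cy5 array of each pair first. Its pair means were 0.10 ± 0.11 and -0.56 ± 0.55. Probe 1org-128 stood at 0.25 overnight, at -0.33 and -1.38 at day 3 and at -0.18 and -1.66 at day 10. It was below the median on all 4 arrays of days 3 and 10, with pair means of -0.86 ± 0.52 and -0.92 ± 0.74, the lowest of the 10 members at both times. Neither mean reached 2-fold. In the limma fit over 5 arrays with a dye term these means had adjusted p-values of 0.0653 and 0.0774, so neither passed.

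Among the muscle probes, 1org-206 went with the dye on every array. It stood at 1.97 overnight, at 1.75 and -1.71 at day 3 and at 1.87 and -2.11 at day 10. The 3 arrays with activated RNA in Cy5 were all more than 3-fold above their medians and the 2 with it in Cy3 more than 3-fold below. Read as Cy5 over Cy3, without turning, it was above the array median on all 5 arrays, by 1.88 ± 0.16 (SD, n = 5 arrays), as were 7.02% of all probes. The pair means of activation were 0.019 ± 1.73 and -0.12 ± 1.99. Its dye part was the 7th highest of 171 probes at day 3 and the 5th highest at day 10.

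The second muscle probe, 1org-1d, had close values within each pair. It stood at 0.16 overnight, at 0.25 and 0.13 at day 3 and at -0.68 and -0.66 at day 10. Its means were 0.19 ± 0.059 and -0.67 ± 0.014, so the 2 pairs did not overlap. miR-1 and miR-206 share their seed, yet the 2 probes differed by 1.45 or more on each array, 1org-206 being above 1org-1d in the Cy5 direction on all 5.

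The smooth muscle probes were at or above the array median on both day 3 arrays and had means below it at day 10. Probe 1org-143 stood at 0.031 overnight, at 0.14 and 0.40 at day 3 and at -0.87 and -0.15 at day 10. Probe 1org-145 stood at -0.53 overnight, at 0 and 0.91 at day 3, where it was itself the median probe of the Cy5 array, and at -1.36 and 0.82 at day 10. Their means were 0.27 ± 0.13 and 0.45 ± 0.45 at day 3 and -0.51 ± 0.36 and -0.27 ± 1.09 at day 10. The day 3 and day 10 arrays were apart for 1org-143 and overlapped for 1org-145.

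Of the endothelial probes, 1org-126 was the 1 member on the same side of the median on all 5 arrays in the activation direction. It stood at -0.58 overnight, at -0.90 and -0.23 at day 3 and at -0.64 and -0.23 at day 10. Of all 171 probes, 14.6% kept to 1 side on all 5 arrays and 9 were below the median on all of them (5.26%). Its means were -0.56 ± 0.33 at day 3 and -0.44 ± 0.20 at day 10. The arm 1org-126*, from the same hairpin, stood at 0.28 overnight, at -0.20 and -0.33 at day 3 and at 0.30 and -1.44 at day 10. Its means were -0.27 ± 0.065 and -0.57 ± 0.87.

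The epithelial probe 1org-205 was above the median at the 2 earlier times and below it at day 10. It stood at 0.52 overnight, at 0.67 and 0.13 at day 3 and at -0.35 and -1.04 at day 10. Its means were 0.40 ± 0.27 and -0.69 ± 0.35, with no overlap between the pairs.

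At day 3, none of the 10 members was at least 2-fold from the array median with the same sign on both arrays. Of all microRNA probes, 26 of 171 were higher by this rule (15.2%) and 34 lower (19.9%). The members' pair means ran from -0.86 (1org-128) to 0.45 (1org-145) around a median of 0.14, against a range of -6.05 to 4.22 around 0.019 for all probes. The typical distance from the median was 0.27 among the members and 0.56 among all probes. For scale, the lymphocyte probe 1org-155, numbered as miR-155 of the activation-induced Bic transcript, had a mean of 4.07 ± 0.62. Probe 1org-150, numbered as miR-150 of mature lymphocytes, was at -6.05 ± 0.0025, and all 8 probes numbered as lymphocyte microRNAs passed the size rule. Of other blood lineages, the myeloid 2org-223 had a mean of -1.05 ± 0.51 and the erythroid 1org-144 one of 0.21 ± 0.11.

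**Figure D2:**
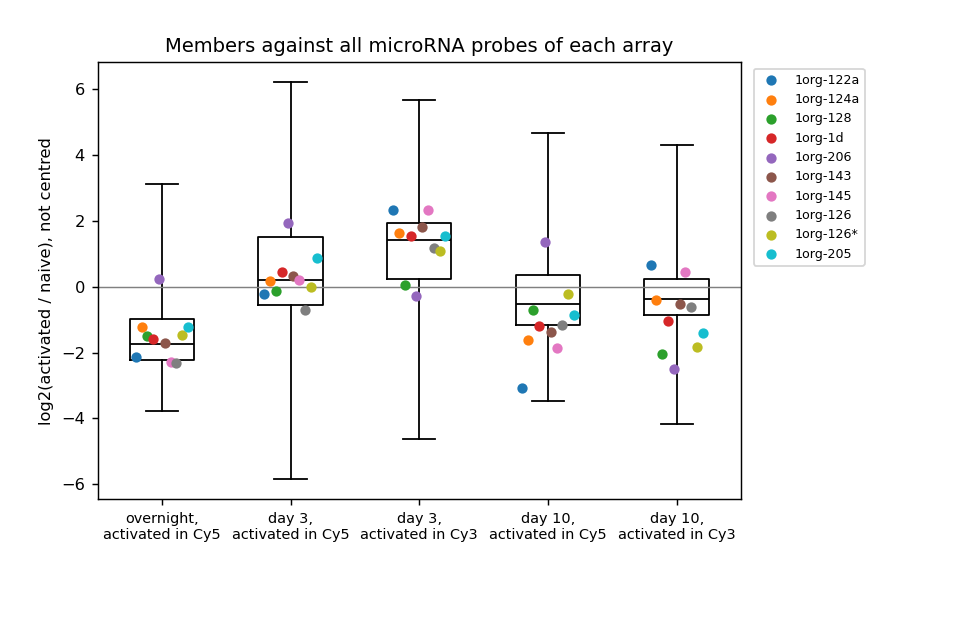
Log2 ratio of activated over naive RNA as turned but not centred (y axis) on each of the 5 arrays (x axis). Boxes show quartiles and whiskers the full range of all 171 microRNA probes, and points are the 10 members. The members' medians move with the array medians, from -1.54 overnight to 1.55 on the Cy3-activated array of day 3.

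Without centring, 3 members were at least 2-fold higher at day 3: 1org-143 (1.08 ± 0.74), 1org-145 (1.26 ± 1.06) and 1org-205 (1.21 ± 0.34). By the same reading 65 of all 171 probes were higher (38%), so this count is near the background. The limma fit over 5 arrays with a dye term called none of the members at day 3 after centring, and 31 of all probes higher (18.1%) and 36 lower (21.1%). At an unadjusted 0.05 it called 1 member, 1org-128, lower, against 23.4% of all probes. Without centring this fit called 4 members higher, against 39.2% of all probes.

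At day 10, the mean of each member lay below the array median, from -0.92 (1org-128) to -0.12 (1org-206). Of all probes, 102 of 171 had means below the median (59.6%). On both arrays 6 members were below (1org-124a, 1org-128, 1org-1d, 1org-143, 1org-126 and 1org-205) and none was above on both, against 31% and 31.6% of all probes. The members' median was -0.57, beside -0.12 for all probes. The typical distance from the median was 0.57 among the members and 0.405 among all probes, the other way round from day 3. None was at least 2-fold from the median with the same sign on both arrays, against 25 higher (14.6%) and 7 lower (4.09%) among all probes. Of the 8 lymphocyte probes, 2 passed this rule at day 10. Probe 1org-155 had a mean of 0.80 ± 0.19, and 1org-150, at -0.84 ± 0.018, lay within the members' range. The fit over 5 arrays called no member at day 10 and 24 probes higher (14%) and 5 lower (2.92%), with 1 member, 1org-128, lower at an unadjusted 0.05 (10.5% of all probes).

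Before centring, 5 members were at least 2-fold lower at day 10, 1org-124a, 1org-128, 1org-1d, 1org-126* and 1org-205, at -1.37 to -1.01. Among all probes 29 of 171 were lower in this way (17%). The fit over 5 arrays then called 2 members lower, against 11.7% of all probes. The count of 5 therefore rests on the reading without centring.

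Between days 3 and 10, 9 of the 10 members had a lower mean at day 10, by 0.064 to 1.09, and 1org-126 was 0.13 higher. Of all probes, 83 of 171 were lower (48.5%), and the 2 comparisons may share their naive RNA. Probe 1org-205 was the 1 member that was at least 2-fold lower with the pairs apart (-1.09), against 23 of 171 probes (13.5%). Probe 1org-122a was also at least 2-fold lower, but its pairs overlapped. Probes 1org-1d, 1org-143 and 1org-205 lay above the median on both day 3 arrays and below it on both day 10 arrays, as did 7.02% of all probes. In the fit over 5 arrays the difference of 1org-205 had an adjusted p of 0.123 and no member passed, against 37 probes higher (21.6%) and 13 lower (7.6%). At an unadjusted 0.05 it was the 1 member called, against 10.5% of all probes lower. Without centring, 6 members were lower with the pairs apart, against 41.5% of all probes, and the fit called 7, against 43.9%.

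Overnight, 9 of the 10 members lay within 0.59 of the array median and 1org-206 was above it by 1.97. On this single array 37 of 171 probes were at least 2-fold above the median (21.6%) and 7 below (4.09%). Taking off the mean dye part of the 2 pairs left 1org-206 at 0.12, and then the members ran from -0.39 (1org-128) to 0.86 (1org-124a). Without centring 9 members were at least 2-fold lower overnight, as were 125 of all 171 probes (73.1%). The fit over 5 arrays with a dye term called no member overnight after centring, against 6.43% of all probes higher and 1.17% lower.

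A dye effect that is the same on each array cancels between arrays of 1 orientation, so overnight was also set against day 3 on the 2 arrays with activated RNA in Cy5. After centring the members hardly moved between them. None differed by 2-fold, and the differences ran from -0.53 (1org-145) to 0.58 (1org-128), whereas 82 of all 171 probes differed by at least 2-fold (48%). Without centring all 10 members differed by at least 2-fold, against 86.5% of all probes. Each was then lower overnight, by -2.48 to -1.37, so the small differences rest on centring. Over the same 2 arrays 1org-150 differed by 7.53 and 1org-155 by -2.89. Against the day 10 array of that dye, overnight was lower in 1 of 10 members, against 40.9% of all probes. The difference was past 2-fold in 2 members, 1org-122a (2.17) and 1org-124a (1.64), against 37.4% of all probes past 2-fold either way. Without centring overnight was lower in 8 members, against 83.6% of all probes. Between the Cy5 arrays of days 10 and 3, 5 members differed by at least 2-fold, against 52% of all probes. Between the Cy3 arrays 2 did, against 43.3%. These are single arrays with no test.

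**Figure D3:**
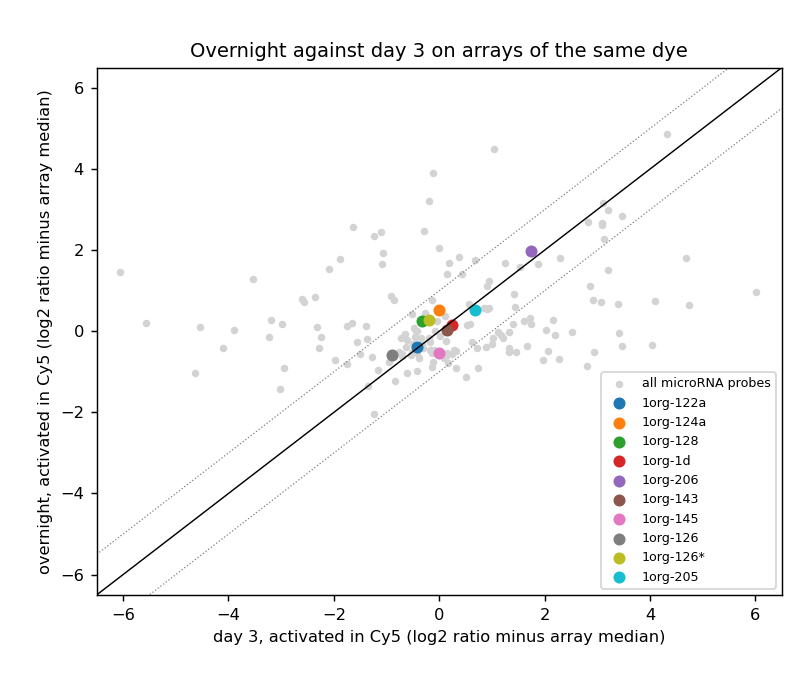
Overnight (y axis) against day 3 (x axis) on the arrays with activated RNA in Cy5, both as log2 ratio minus the array median, for all 171 microRNA probes (grey) and the 10 members (colours). The solid line is equality and the dotted lines 2-fold. All 10 members lie between the dotted lines, within 0.58 of equality.

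Over the 3 times, with 1 value per time, no member passed limma's test against the array median (Benjamini-Hochberg over 171 probes). The smallest adjusted p among the members was 0.667, for 1org-126 at -0.53 ± 0.36 (SE, n = 3 times). Probe 1org-128 was at -0.51 ± 0.43 and 1org-206 at 0.63 ± 0.56. The overnight value is from 1 array with activated RNA in Cy5, so these means hold its dye part. With the 5 arrays as replicates and dye as a covariate, the mean of 1org-206 was -0.021. No probe of the 171 passed (0%). At an unadjusted 0.05 there were 10 higher (5.85%) and 1 lower (0.585%), none of them a member. When each of the 5 arrays counted as a replicate, with dye as a covariate, limma again called no probe after adjustment (0%), and at an unadjusted 0.05 it called 1 member lower, 1org-128 (mean -0.81, adjusted p = 0.234), against 5.26% of all probes.

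**Figure D4:**
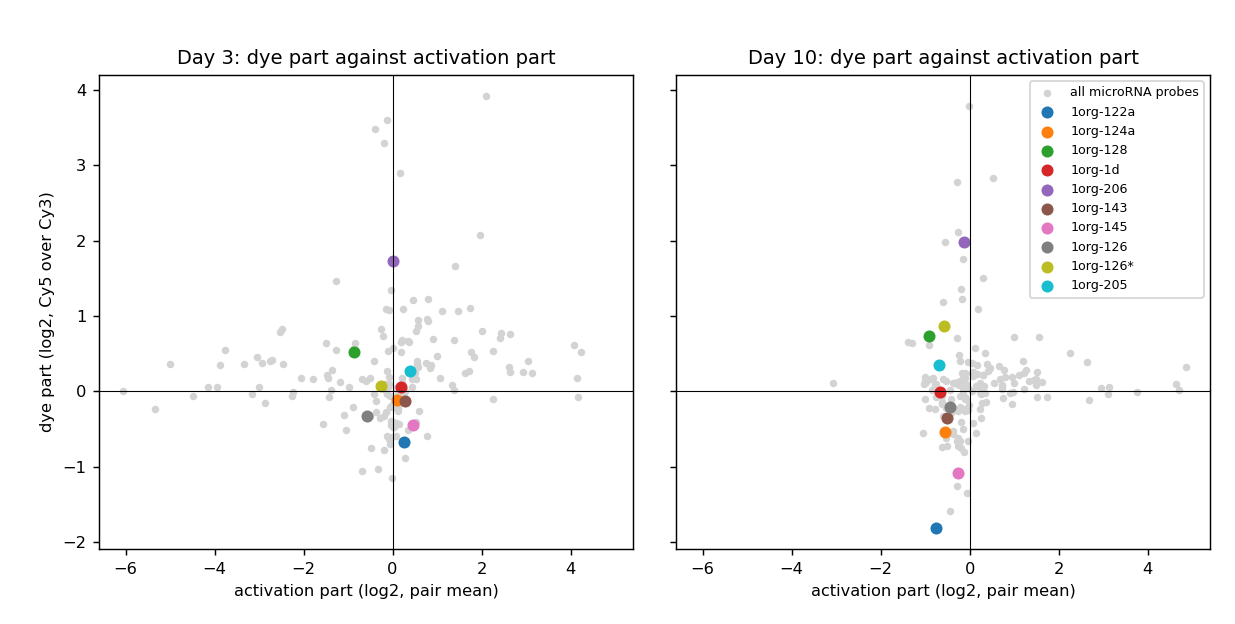
Dye part (y axis, log2, Cy5 over Cy3) against activation part (x axis, log2, mean of the turned pair) at day 3 (left) and day 10 (right), after centring. Grey points are all 171 microRNA probes and coloured points the 10 members. With 1 array per dye, the dye part also holds array noise. Among the members 1org-206 (1.73 and 1.99) and 1org-122a (-0.67 and -1.81) lie furthest out on the dye axis, and the dye part exceeds the activation part in 3 of 10 at day 3 and 4 of 10 at day 10.

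Within the pairs, the dye part exceeded the activation part in 3 members at day 3 (1org-122a, 1org-124a and 1org-206) and in 4 at day 10 (1org-122a, 1org-206, 1org-145 and 1org-126*). Over all probes it did so in 36.8% and 36.3%, so these counts are near the background. Without centring it did so in 5 members at day 3, against 28.1% of all probes. In size the dye parts of the members spread from -0.67 to 1.73 at day 3 and from -1.81 to 1.99 at day 10. Array noise is part of these values. For 1org-126* they were 0.065 and 0.87 at days 3 and 10, for 1org-206 1.73 and 1.99. The dye part of 1org-122a at day 10 was the lowest of all 171 probes. Dye parts of at least 1 either way were found for 3 members at day 10 (1org-122a, 1org-206 and 1org-145), against 10.5% of all probes. At day 3 it was 1 member, 1org-206, against 12.3%.

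The order of the members among themselves was more stable by dye than by activation. Of their 45 pairs, 23 were in the same order on all 5 arrays when read as Cy5 over Cy3 (51.1%), against 13.6% of the 14535 pairs of all probes. Read as activated over naive, 1 pair kept its order (2.22%), against 18.1% of all pairs. The 2 counts are tied: with arrays of both orientations, a pair alike by dye on all 5 cannot be alike by activation. Pairs that share a probe are not independent. These counts, which need no centring, were chosen after the data were seen and have no test. Probe 1org-206 was above each of the other 9 members in the Cy5 direction on all 5 arrays, and without it 14 of 36 pairs kept their order (38.9%). Probe 1org-122a kept its order with 7 of 9 partners and 1org-124a with 2. The 1 pair that kept its order by activation was 1org-126* over 1org-128, by 0.035 to 1.05. Among the 8 lymphocyte probes the counts ran the other way, with 0 of 28 pairs in the same order by dye and 10 by activation (35.7%). With the Cy5-activated array of day 10 left out, 9 of the 45 pairs kept their order by activation and 23 by dye.

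**Figure D5:**
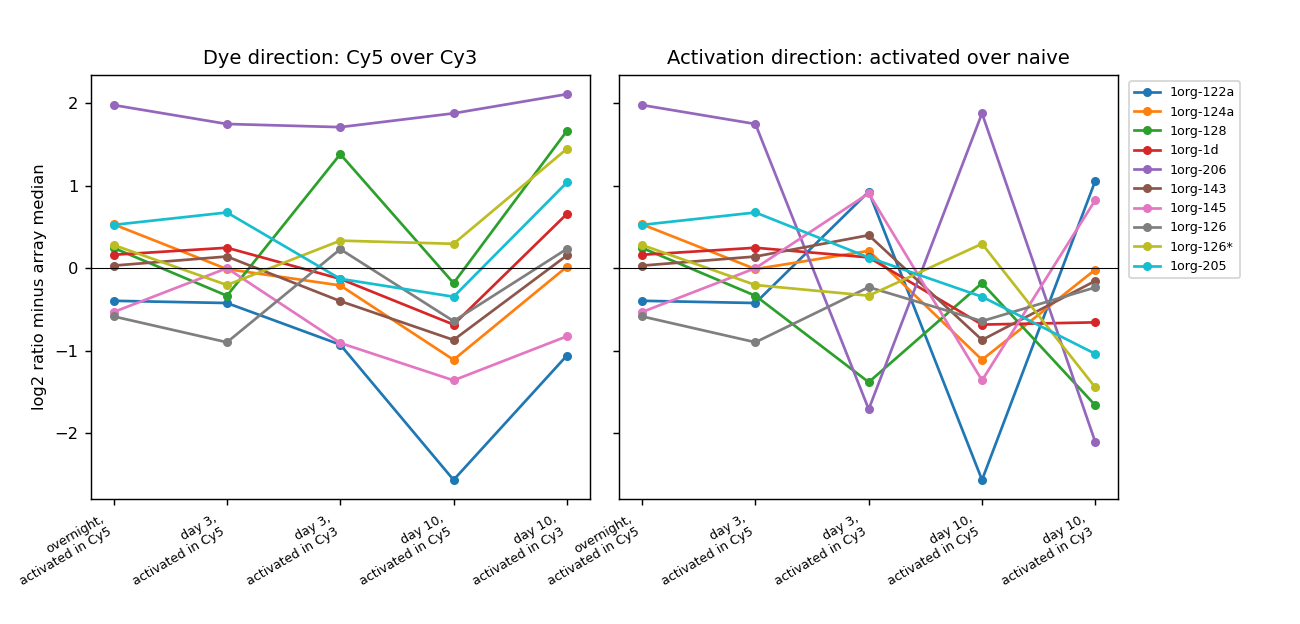
Log2 ratio minus array median (y axis) of the 10 members on the 5 arrays (x axis), read as Cy5 over Cy3 (left) and as activated over naive (right). Lines join the values of 1 probe and imply no time course. On the left 23 of 45 pairs of probes keep their order on all 5 arrays, and on the right 1 does.

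Both pairs of members from 1 transcript or hairpin were among those already counted above as keeping their order by dye. The 2 arms 1org-126 and 1org-126* differed by -0.86, -0.69, -0.10, -0.94 and -1.21 in the Cy5 direction, always to the lower side for 1org-126. Turned to the activation direction, the same differences were by arithmetic negative on the 3 arrays with activated RNA in Cy5 and positive on the 2 with it in Cy3. Probes 1org-143 and 1org-145 differed by 0.14 to 0.98 in the Cy5 direction, with 1org-143 higher on all 5 arrays. The neural probes 1org-124a and 1org-128 did not keep 1 order in either direction. Probe 1org-1b, which bears the number of miR-1 as 1org-1d does and was picked after its values were seen, lay 0.29 to 0.71 below 1org-1d in the Cy5 direction on all 5 arrays. Its pair means of activation were 0.0080 at day 3 and -0.53 at day 10, beside 0.19 and -0.67 for 1org-1d. The means of the 2 muscle probes thus differed by less than 0.2 at both times.

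A further 23 probes carry numbers of other tissue-restricted microRNAs: 7 neural, 3 muscle, 5 epithelial, 5 of liver, gut and pancreas, and 3 of kidney and eye. At day 3, 1 of the 23 was at least 2-fold higher, the neural 1org-129 (1.34 ± 0.089), and 1 was lower, 1org-194 of liver and gut (-1.09 ± 0.31). At day 10 none was past 2-fold. In limma's fit over 5 arrays 2 of the 23 were higher and 1 lower at day 3 at an adjusted p below 0.05, and none at day 10, where 3 were lower at an unadjusted 0.05. At day 10, 21 of the 23 had means below the array median, as did all 10 members and 59.6% of all probes. The list median was -0.077 at day 3 and -0.20 at day 10.

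Overnight, 3 of these 23 probes were at least 2-fold above the array median, the epithelial 1org-200a (2.62), 1org-200b (2.83) and 2org-200c (3.17), and the neural 2org-219 was below it (-1.23). The 3 miR-200 probes turned sign with the dye in the pairs as 1org-206 did, with dye parts of 3.49, 3.60 and 3.30 at day 3. In order among themselves, 91 of the 253 pairs of the list were alike by dye on all 5 arrays (36%) and 17 by activation (6.72%). Without the miR-200 probes it was 31 of 190 by dye (16.3%), close to the 13.6% of all probes. By activation it was then 17 of 190 (8.95%), against 18.1% of all pairs.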

How the data were processed

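Two-colour microRNA arrays of activated against naive mouse T cells were read from 1 deposited table of log2 ratios, 1 value for each of 178 probes on each of 5 arrays. For the log base, the numerator, background correction and normalization, the answer is not given in the sources used here. Scanner signals were not used here, so depth and detection are unknown. Groups and dyes came from the labels. Arrays with activated RNA in channel 1 were multiplied by -1, and each array was centred on its median over 171 microRNA probes. The 7 transfer RNA and small nuclear RNA probes were left out. Tests used limma 3.58.1 in R 4.3.3 (lmFit, eBayes, 2-sided, Benjamini-Hochberg at 0.05 over 171 probes). On simulated data, recovery of planted changes was required of the 2-fold rule and the fit over 5 arrays given below, not of the fit over times. Times were the replicates, with each dye pair averaged and the overnight array kept with its dye part. Within a time a probe counted as changed at 2-fold where both of its arrays had the same sign, and an added limma fit over 5 arrays modelled the 3 times and the dye, with 1 residual degree of freedom before moderation and 1 common SE for all probes at a time. Its p-values rest on array-to-array spread alone, which may be technical.

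The naming rule gave all 10 members, 4 probes for scale (1org-155, 1org-150, 1org-181 and 1org-21) and up to 4 related probes at each time past 2-fold. The members and lists were chosen with earlier results of these data known. Alternatives were other centrings, scaling, a 1.5-fold threshold, single dyes, annotated members alone and leaving out each array.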

Additional observations from a re-analysis of the deposited data

Results flagged for a closer look

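Probes 1org-1d, 1org-143 and 1org-205 lay above the array median on both day 3 arrays and below it on both day 10 arrays. Day 10 minus day 3 was -0.86 for 1org-1d, -0.78 for 1org-143 and -1.09 for 1org-205 (log2). In the limma fit over 5 arrays these differences had adjusted p-values of 0.226, 0.28 and 0.123, so none passed. Of all 171 microRNA probes, 12 lay above at day 3 and below at day 10 on all 4 arrays (7.02%), and 29 lay on opposite sides either way (17%). The array medians also differed between the days, and their part in these differences was not tested.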

How the results depend on the processing

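The members' counts depended on centring and on single arrays. Not centred, 0 members were higher overnight (4.09% of all probes) and 9 lower (73.1%). By that reading 3 were higher at day 3 (38%), 5 lower at day 10 (17%) and 6 lower at day 10 than at day 3 (41.5%). The dye part then exceeded the activation part in 5 at day 3 (28.1%). Centred on the mean, 1 was lower at day 10 (8.19% of all probes) and 3 were lower than at day 3 (20.5%). Centred without the members and related list the counts were 1 (7.02%) and 2 (16.4%), and after scaling arrays to the same spread 1 was lower at day 10 (7.02%). At 1.5-fold, 1 was lower at day 3 (24% of all probes), 3 at day 10 (15.2%) and 4 at day 10 against day 3 (19.9%). With the dye part taken off, or in limma over 5 arrays with or without a dye term, 0 were higher overnight, and with the dye term 0 were lower at day 10 than at day 3. On Cy5 arrays alone 5 were lower at day 10 than at day 3 (25.7%), on Cy3 arrays alone 2 (11.7%), and among the 2 annotated members 0.

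Leaving out each array in turn gave 0 to 1 higher and 0 to 2 lower at day 3, 0 to 1 higher and 0 to 4 lower at day 10, and 0 to 1 higher and 1 to 4 lower between the days. The day 3 counts of 1 (29.8% of all probes) and 2 (27.5%) came without the Cy3 and the Cy5 array, and the day 10 lower counts of 3 (9.36%) and 4 (14%) likewise. The day 10 higher count of 1 came without the Cy3 array (22.8%) and without the Cy5 array (13.5%). Between the days, 1 higher (34.5%) and 4 lower (19.3%) came without the Cy3 array of day 10. Single arrays carry their dye effect. Pairs in the same order ranged from 23 to 30 by dye and from 1 to 9 by activation, a check added after seeing the data. No member was called over all times in any setting. In the main setting that limma test called none of the 171 probes, 1org-155 included (mean 2.22, adjusted p = 0.54), so it cannot set the members apart. The cause of the other shifts was not tested. No paired analysis was possible because the labels give no replicate numbers shared across the times, so arrays were matched by dye alone.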
